A study of Mus musculus with 4 samples.

Results

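The genes described here encode 4 families of pre-mRNA splicing factors in mouse leukaemia cells: proteins of the small nuclear ribonucleoprotein particles (snRNPs), subunits of the SF3A and SF3B complexes, serine and arginine rich (SR) proteins, and heterogeneous nuclear ribonucleoproteins (hnRNPs). They were taken by name alone, as every gene whose symbol begins with Snrp, Sf3a, Sf3b, Srsf or Hnrnp. This gave 52 of the 24497 mouse genes in the table: 12 Snrp genes, 9 Sf3a and Sf3b genes, 11 Srsf genes and 20 Hnrnp genes. No row under these names was marked as a pseudogene by the suffix -ps. Of the 52 genes, 50 reached at least 1 TPM in at least 2 libraries and were tested. TPM is a transcript abundance corrected for transcript length and scaled to a fixed total per library.

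The cells are acute myeloid leukaemia (AML) cells made from haematopoietic stem cells of the bone marrow of wild-type (WT) or Tet2-/- mice with NRAS and AE9a, an oncogenic RAS and a truncated AML1-ETO fusion that every library shares. Per the labels' protocols, the cells were kept in RPMI medium with murine SCF, IL-3 and IL-6 under G418 and puromycin, and transplanted into NCI C57 B6.SJL (CD45.1+) recipients aged 6 to 8 weeks after 900 cGy of irradiation. RNA came from CD45.2 cells, the donor form of this surface protein, enriched from the spleen. There were 2 libraries labelled WT and 2 labelled Tet2 KO. The sources used here do not give the donors' strain and age, the Tet2 allele, the number of mice behind a library or any pooling, and no label ties each library to its own mouse. The p-values therefore cover the spread between libraries alone, and that spread may be technical.

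Splicing removes introns from pre-mRNA in the spliceosome, which is built from the U1, U2, U4, U5 and U6 snRNPs. Each of the U1, U2, U4 and U5 particles carries a ring of Sm proteins around its small nuclear RNA, and SF3A and SF3B join the U2 particle and hold it to the branch point of the intron. SR proteins bind exons and mostly favour the use of nearby splice sites, whereas hnRNPs coat nascent RNA and often oppose it. Srsf2, Sf3b1 and U2af1 are known for recurrent mutations in human myeloid malignancies.

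The spread between the WT libraries was near that of read sampling (variance 1.20 times that of sampling, robust estimate over 4649 genes, with 29 genes beyond 5 SD), and they were averaged and counted as 1 sample. The same ratio was 8.70 for the Tet2 KO libraries. Estimated depth was 19.5 to 25.5 M reads per library (M, mega), and the tested splicing factor genes had between 244 and 50715 estimated reads each. Tet2 itself stood at 43.5 and 43.7 TPM in WT, compared with 63.7 and 68.1 TPM under the label Tet2 KO, a log2 change of 0.58 ± 0.19 (SE; limma adjusted p = 0.0171, range over the alternatives 0.000207 to 0.117), so total Tet2 RNA was not lower under the knockout label. Gene-level TPM cannot show whether an exon is missing. ERCC spike-in RNAs, control RNAs added to samples in amounts that the labels do not give, took 4.62% to 4.66% of TPM in WT and 2.95% to 3.19% in the libraries labelled Tet2 KO. The precursor of ribosomal RNA, Rn45s, took 0.894% to 0.923% and 0.134% to 0.298%. A list of 18 neutrophil genes, many but not all for granule proteins, summed to 1771 and 1808 TPM in WT, compared with 108654 and 87569 TPM in Tet2 KO. Most of the Tet2 KO sums came from S100a8 (35305 and 27010 TPM) and S100a9 (38264 and 33970 TPM). Of the 18, 17 (94.4%, beside 22.1% of all genes) were called higher (limma), and the other one was at an unadjusted p under 0.05 only. The 20 cell cycle genes summed to 908 and 915 TPM in WT, compared with 1194 and 1622 TPM in Tet2 KO. Here 13 (65%, beside 22.1% of all genes) were called higher. Sums over markers of other cells the sample could hold also differed between the labels, while single markers went both ways. The sum over 8 erythroid genes was 2.44 to 4.10 TPM in WT and 23.1 to 43.4 TPM in Tet2 KO, with Hbb-bs listed at 0 throughout. That over 7 stromal and endothelial genes was 53.0 to 53.2 TPM and 77.7 to 80.4 TPM, mostly Pecam1, and both tested genes (Pecam1 and Col1a1) were called higher. The endothelial gene Cdh5, not tested, went the other way, at 0.39 to 0.53 TPM in WT and 0.05 to 0.15 TPM in Tet2 KO. The sum over 7 B cell genes was 8.61 to 9.42 TPM and 4.19 to 6.65 TPM, with Cd79a called higher, Cd79b lower and Pax5 listed at 0 in Tet2 KO. That over 10 T and NK cell genes was 7.77 to 8.36 TPM and 9.39 to 18.2 TPM, with Ncr1 listed at 0 throughout. Of 5 tested T and NK cell genes 1 was called higher (20%, beside 22.1% of all genes), and in 4 the groups overlapped. Of 11 haematopoietic and myeloid markers 7 were called higher (63.6%, beside 22.1% of all genes) and 2 lower (18.2%, beside 26.7%). Ptprc was at 292 to 296 TPM in WT and 396 to 413 TPM in Tet2 KO, Spi1 at 630 to 662 TPM and 508 to 650 TPM, and neither was called. Csf3r was at 20.2 to 21.9 TPM and 216 to 365 TPM, whereas the lower calls were Csf1r (721 to 730 TPM and 142 to 170 TPM) and Cd34 (60.6 to 60.7 TPM and 14.7 to 15.8 TPM). The part of any of these values in the results below was not tested. In bulk RNA, fewer cells of a type and less RNA per cell cannot be told apart.

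The promoters of the genes were searched for motifs common at start sites of widely expressed genes. RefSeq promoter windows of 300 bases (250 before and 50 after the start, GRCm38.p6, the farthest upstream start of each gene) matched 46 of the 52 genes by symbol. A GC box (GGGCGG, either strand) was in 32 of the 46 windows, or 69.6%, against 64.1% of the windows of 9116 tested genes and 35.9% of all 27025 windows. The core letters bound by ETS factors (CCGGAAG, either strand) were in 16 of the 46, or 34.8%, against 19.4% of tested genes and 9.14% of all. They were in 6 of 7 Sf3a and Sf3b windows (Sf3a1, Sf3a2, Sf3a3, Sf3b2, Sf3b3 and Sf3b6), 4 of 10 Snrp, 4 of 11 Srsf and 2 of 18 Hnrnp windows. A CCAAT box (CCAAT, either strand) was in 22 of the 46, or 47.8%, against 39.2% of tested genes and 38.0% of all, and in 12 of the 18 Hnrnp windows. The NRF1 motif (either strand) was in 6 windows, or 13.0%, against 11.1% of tested genes and 4.82% of all. An E-box (CACGTG, a palindrome) was in 5, or 10.9%, against 10.5% and 7.24%. The YY1 motif and the palindromic CGCG element bound by BANP were in 1 window each (2.31% and 1.1% of tested genes), and an interferon response element (ISRE) was in 0 of 46, against 3.21% of tested genes. Motifs of different kinds may overlap, and a match is a description of letters, not of a bound site.

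The 200 bases before the RefSeq start are shown for genes that stand at either end of the results: 4 Snrp genes that were lower together in the libraries labelled Tet2 KO, and 2 Hnrnp genes that were higher. They run 5′ to 3′ on the gene's own strand, and capitals mark any of the motifs above. The Snrpg stretch (chr6:86371340-86371539, plus strand) holds an ETS motif and a CCAAT box, that of Snrpd3 (chr10:75517842-75518041, plus) a CCAAT box, that of Snrpb2 (chr2:143062869-143063068, plus) an NRF1 motif, a GC box and a pair of ETS motifs, and that of Snrpf (chr10:93589659-93589858, minus) 3 CCAAT boxes. The Hnrnpa3 stretch (chr2:75659059-75659258, plus) holds a CCAAT box, 3 GC boxes and an E-box, and that of Hnrnpu (chr1:178337816-178338015, minus) 3 GC boxes. The RefSeq start can lie inside the gene as GENCODE M21 annotates it. The Snrpg and Snrpd3 stretches lie wholly inside those genes, which start at 86371304 and 75517551 there. Those of Snrpb2 (gene start 143063039) and Snrpf (gene start 93589706, minus strand) overlap their genes in part.
Snrpg: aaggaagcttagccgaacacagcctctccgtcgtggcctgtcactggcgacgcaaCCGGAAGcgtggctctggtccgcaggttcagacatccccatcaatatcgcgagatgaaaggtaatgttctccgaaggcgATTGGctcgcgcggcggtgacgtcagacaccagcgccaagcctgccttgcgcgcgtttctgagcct
Snrpd3: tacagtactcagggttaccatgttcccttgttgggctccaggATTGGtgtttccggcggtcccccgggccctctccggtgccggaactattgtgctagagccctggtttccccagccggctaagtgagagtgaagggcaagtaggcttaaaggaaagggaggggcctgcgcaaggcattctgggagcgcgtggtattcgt
Snrpb2: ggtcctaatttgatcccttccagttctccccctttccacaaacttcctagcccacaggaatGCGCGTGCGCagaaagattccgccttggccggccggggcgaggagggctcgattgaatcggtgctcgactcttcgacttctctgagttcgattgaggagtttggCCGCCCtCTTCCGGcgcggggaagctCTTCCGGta
Snrpf: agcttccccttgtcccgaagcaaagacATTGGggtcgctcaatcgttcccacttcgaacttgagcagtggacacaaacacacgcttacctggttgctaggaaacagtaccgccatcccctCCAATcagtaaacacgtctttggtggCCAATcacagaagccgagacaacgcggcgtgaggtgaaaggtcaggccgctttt
Hnrnpa3: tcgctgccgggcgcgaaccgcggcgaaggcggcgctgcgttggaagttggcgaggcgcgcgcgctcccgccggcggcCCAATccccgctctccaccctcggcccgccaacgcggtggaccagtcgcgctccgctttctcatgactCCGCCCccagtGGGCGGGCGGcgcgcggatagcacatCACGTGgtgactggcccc
Hnrnpu: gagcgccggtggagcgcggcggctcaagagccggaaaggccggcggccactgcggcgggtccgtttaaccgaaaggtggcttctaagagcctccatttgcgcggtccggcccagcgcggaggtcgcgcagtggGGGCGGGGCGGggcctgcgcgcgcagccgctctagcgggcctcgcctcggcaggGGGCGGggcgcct

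Of the 50 tested genes, 3 were called higher and 11 lower in the libraries labelled Tet2 KO (limma on log2(TPM + 1), Benjamini-Hochberg adjusted p under 0.05 over 11919 genes). That is 6% higher and 22% lower, or 28% in all, beside a background of 22.1% higher, 26.7% lower and 48.8% in either direction over all genes. Neither share was above the background, and that of lower calls was close to it. The median log2 change was -0.29, against -0.12 over all genes, and the median size of change without its sign was 0.37 against 0.61. Single genes ran from -0.98 (Sf3b3) to 1.11 (Hnrnpa3). In 35 genes both Tet2 KO values lay below both WT values and in 10 genes above, while 5 overlapped. These make up 70% and 20% of the 50, with the same separation in 48.7% and 38.4% of all genes. With both WT libraries taken as samples, 7 splicing factor genes were called higher and 22 lower, beside 29.5% higher, 37.9% lower and 67.4% in either direction over all genes.

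**Figure D1:**
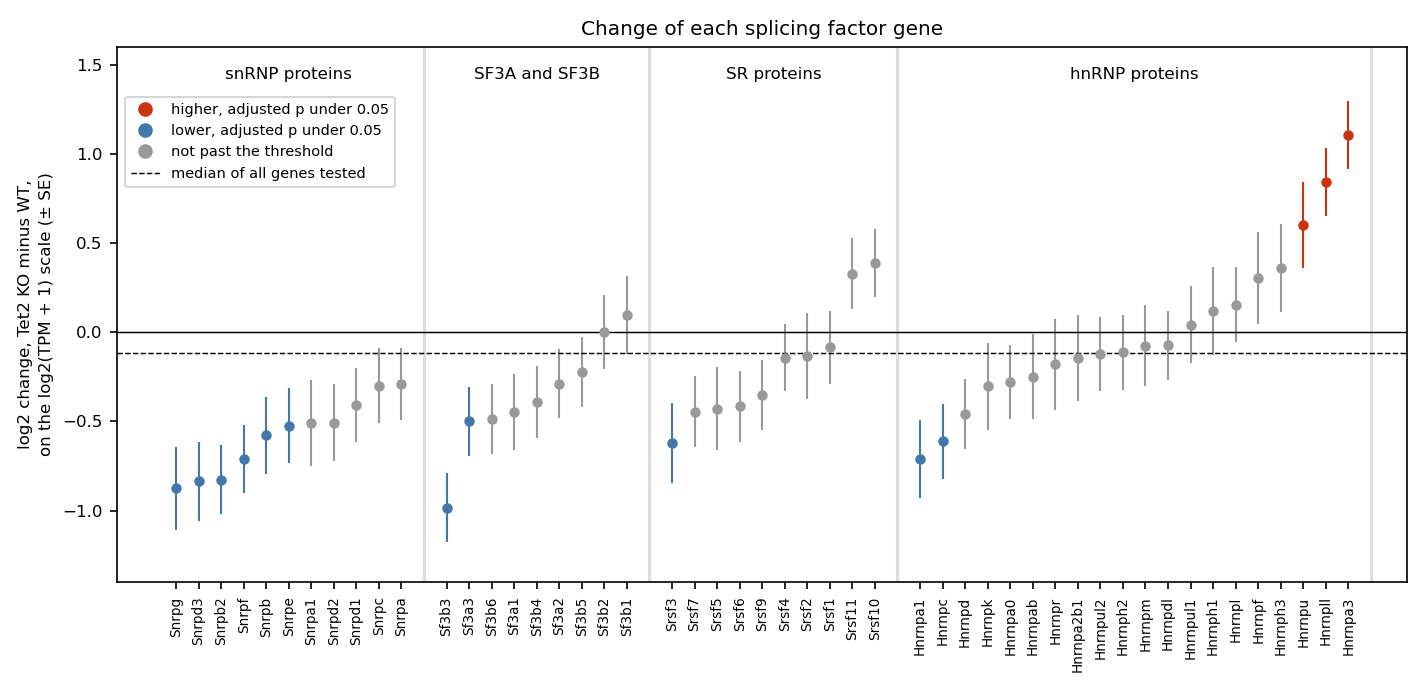
Log2 change (Tet2 KO minus WT, on the log2(TPM + 1) scale; y axis) of each of the 50 tested splicing factor genes (x axis), ordered within each family; points are limma estimates and bars are SE. The 11 snRNP genes all lie below the dashed median of all genes (-0.12), whereas the hnRNP genes run from -0.71 to 1.11.

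The Snrp genes were the lowest family in the libraries labelled Tet2 KO. Of 11 tested, 6 (54.5%, beside 26.7% of all genes) were called lower and 0 higher (limma; 7 lower and 0 higher at unadjusted p under 0.05), and all 11 had both Tet2 KO values below both WT values, a separation found in 48.7% of all genes. Lower calls numbered 4 of the 11 with median centring (beside 23.5% of all genes) and 0 under ERCC scaling (beside 12.5%). After quantile normalization they numbered 2 of the 11, beside 2552 of 11919 genes, a share not above the background. Their summed level was 1574 and 1587 TPM in WT, compared with 925 and 1153 TPM in Tet2 KO. The family's median log2 change was -0.52 as deposited but 0.07 with each library scaled to its ERCC spike-ins, a scaling that moved the median of all genes up by 0.55, to 0.43. All 11 were also lower in Tet2 KO replicate 1 than in replicate 2, by a median of 0.35 on the log2 scale, whereas the WT libraries differed by a median of 0.07.

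The ring of 7 Sm proteins is encoded by Snrpb, Snrpd1, Snrpd2, Snrpd3, Snrpe, Snrpf and Snrpg. Snrpg, which encodes SmG, was the most abundant by mean over the libraries, though below Snrpb in Tet2 KO replicate 1, at 319.8 and 319.8 TPM in WT, compared with 151 and 200.4 TPM in Tet2 KO replicates 1 and 2. Its log2 change was -0.88 ± 0.23 (SE; adjusted p = 0.00634). Both Tet2 KO values were well under the WT pair, and replicate 1 was the lower of them. Snrpd3, for SmD3, stood at 142 and 135 TPM in WT, compared with 65.8 and 91.1 TPM in Tet2 KO (log2 change -0.83 ± 0.22, adjusted p = 0.0068). Snrpf, for SmF and the least abundant of the ring in every library, stood at 88.6 and 81.9 TPM against 48.1 and 55.6 TPM (-0.71 ± 0.19, adjusted p = 0.00603). Snrpb, for SmB, was at 243 and 249 TPM in WT, compared with 154 and 176 TPM in Tet2 KO (-0.58 ± 0.22, adjusted p = 0.0375). In each of these genes the groups did not overlap and replicate 1 of Tet2 KO was the lowest library.

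Snrpe, for SmE, was at 193 and 209 TPM in WT, compared with 133 and 147 TPM in Tet2 KO (-0.52 ± 0.21, adjusted p = 0.0498), and its call was lost without WT replicate 2 (adjusted p = 0.0771). Snrpd2, for SmD2, was at 144 and 143 TPM in WT, compared with 87.2 and 116 TPM in Tet2 KO (-0.51 ± 0.22, adjusted p = 0.0691) and did not pass. Snrpd1, for SmD1, was at 105.2 and 104.9 TPM in WT, compared with 69.9 and 89.2 TPM in Tet2 KO (-0.41 ± 0.21, adjusted p = 0.117) and did not pass either. Thus 5 of 7 Sm ring genes were called lower (71.4%, beside 26.7% of all genes). All 7 had both Tet2 KO values below both WT values, a separation found in 48.7% of all genes. The ratio of the highest to the lowest Sm gene within a library was 3.61 and 3.91 in WT and 3.20 and 3.61 in Tet2 KO. Of the 7, limma called 3 lower with libraries centred on their medians (Snrpg, Snrpd3 and Snrpf), beside 23.5% of all genes. Without trend and robust estimation it called 2 (Snrpg and Snrpf), beside 2776 of 11919 genes. After quantile normalization it called 1 (Snrpf), beside 2552 of 11919 genes, a share not above the background. Under ERCC scaling the Sm ring median was 0.02 and no Sm gene was called (limma; 0 at unadjusted p under 0.05), with 4 of the 7 turning above 0: Snrpb (0.0159), Snrpe (0.0692), Snrpd2 (0.0858) and Snrpd1 (0.184).

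Other Snrp genes belong to a single particle. Snrpb2 encodes U2 B″, which binds a stem loop of U2 RNA, and stood at 101 and 106 TPM in WT, compared with 53.8 and 62.3 TPM in Tet2 KO, a log2 change of -0.83 ± 0.19 (SE; adjusted p = 0.00225). Its partner Snrpa1, for U2 A′, was at 51.7 and 52.4 TPM in WT, compared with 29.5 and 44.4 TPM in Tet2 KO (-0.51 ± 0.24, adjusted p = 0.107). The Tet2 KO libraries differed more from each other for Snrpa1 than for Snrpb2. Snrpa and Snrpc, for the U1 proteins A and C, had the smallest log2 changes of the family. Snrpa was at 64.3 and 71.6 TPM in WT, compared with 48.8 and 62.8 TPM in Tet2 KO (-0.29 ± 0.20, adjusted p = 0.251). Snrpc was at 121 and 115 TPM against 84.9 and 108 TPM (-0.30 ± 0.21, adjusted p = 0.253). Snrpn, an imprinted gene for the SmB relative SmN known from neurons, was listed at 0 in all 4 libraries, and Snurf, which shares its transcript, was at 0.05 TPM in 1 WT library and at 0 in the others.

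**Figure D2:**
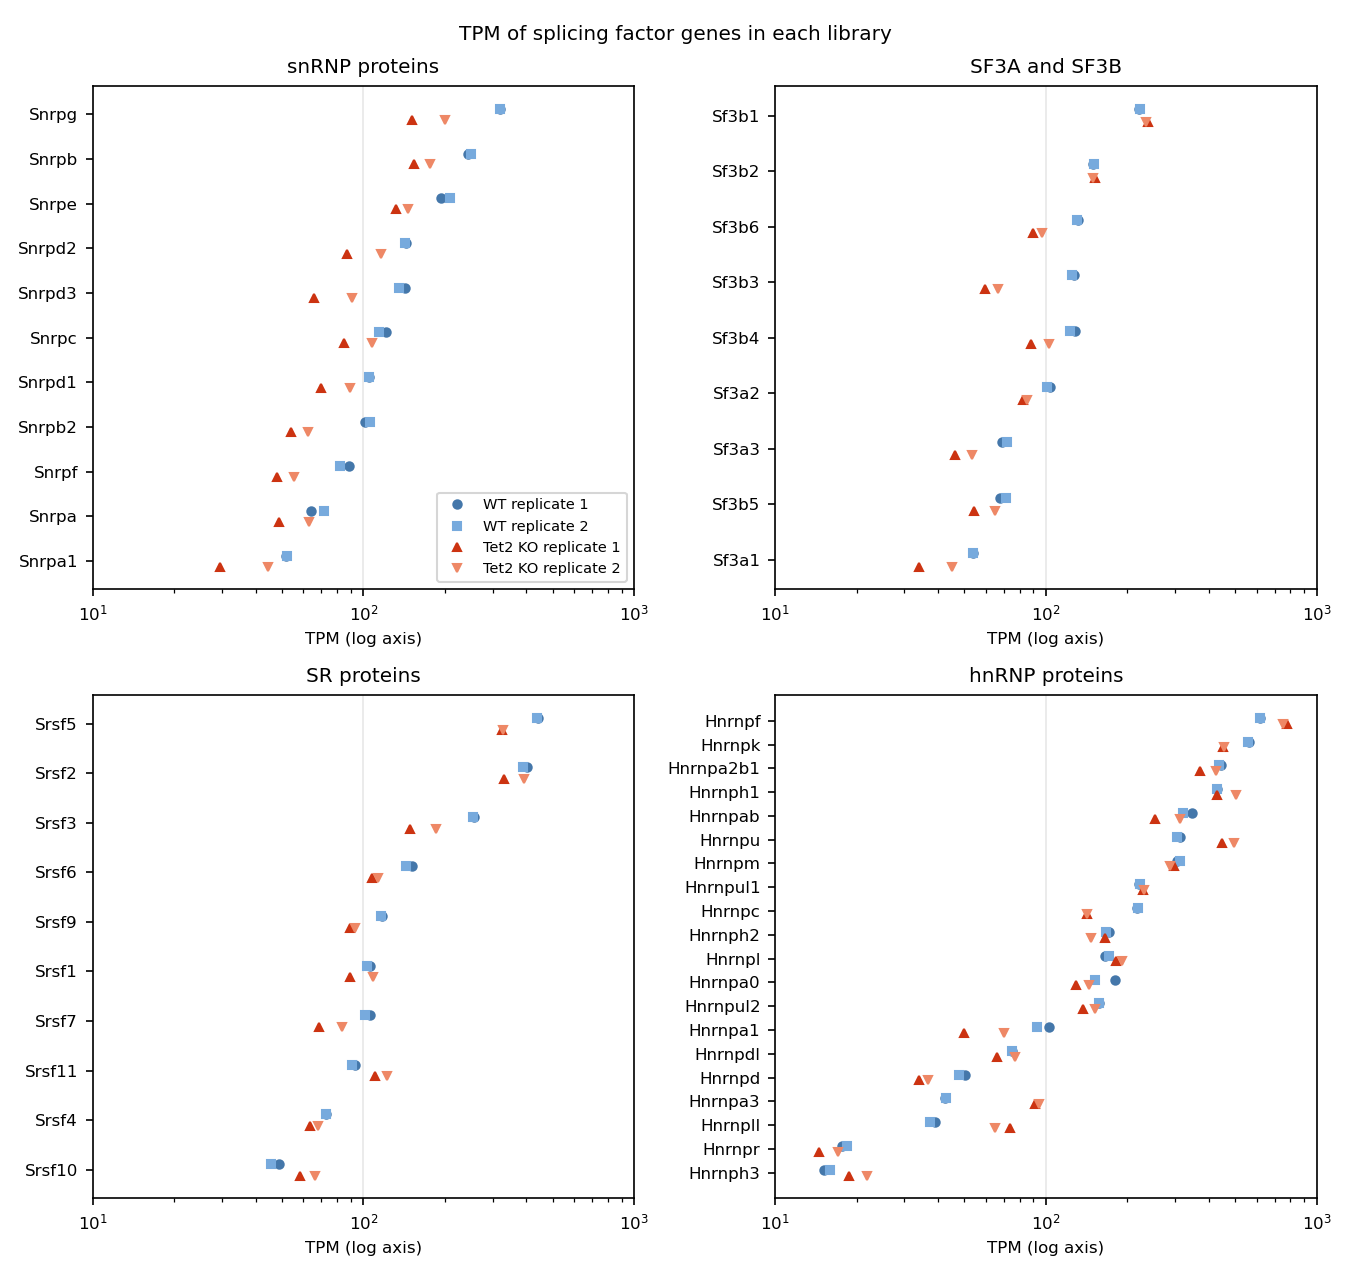
TPM (x axis, log scale) of each tested splicing factor gene in each of the 4 libraries, by family; points are single libraries, with no error drawn. WT pairs nearly coincide, Tet2 KO replicate 1 lies below replicate 2 in 43 of 50 genes, and Hnrnpf is the highest gene in every library.

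Of 9 SF3 genes tested, 2 were called lower (22.2%, beside 26.7% of all genes) and 0 higher (beside 22.1%). Neither share was above the background. At unadjusted p under 0.05 (limma) 3 were lower and 0 higher. The family's median log2 change was -0.39 as deposited and 0.20 under ERCC scaling. Sf3b3, for a scaffold subunit that cradles SF3B1, had the largest fall of all 50 genes, from 127 and 124 TPM in WT to 59.4 and 66.7 TPM in Tet2 KO. That is 0.502 of the WT level and a log2 change of -0.98 ± 0.19 (SE; adjusted p = 0.000568). The gene lies at chr8:110810239-110846787 on the minus strand (mm10) and shares exon sequence with Cog4 on the other strand. Sf3a3, for the SF3A subunit that links the complex to U2, stood at 69.1 and 72.0 TPM in WT, compared with 46.1 and 53.4 TPM in Tet2 KO (-0.50 ± 0.19, adjusted p = 0.0415). Its call was lost without WT replicate 2 (log2 change -0.47), with median centring (-0.40), after quantile normalization and without trend and robust estimation. Under ERCC scaling its log2 change was 0.09 and it was not called.

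The largest SF3B subunits did not follow Sf3b3. Sf3b1, which holds the branch point adenosine and is the most abundant of the 9, stood at 221 and 222 TPM in WT, compared with 239 and 235 TPM in Tet2 KO (0.10 ± 0.22, adjusted p = 0.733). Sf3b2 was at 149 and 151 TPM in WT, compared with 152 and 149 TPM in Tet2 KO, the smallest change of all 50 genes (0.0027 ± 0.21, adjusted p = 0.993). The Tet2 KO values of Sf3b2 fell on either side of the WT pair. Within each library the ratio of Sf3b1 to Sf3b3, chosen after the values were seen and free of any scaling between libraries, was 1.75 and 1.78 in WT and 4.02 and 3.53 in Tet2 KO. Sf3b6, whose protein touches the branch point, was at 132 and 130 TPM against 89.3 and 97.0 TPM (-0.49 ± 0.20, adjusted p = 0.0524), and passed without WT replicate 2 (adjusted p = 0.048). Sf3a1 was at 53.6 and 53.6 TPM against 33.9 and 45.1 TPM (-0.45 ± 0.21, adjusted p = 0.0969). The other members, Sf3b4, Sf3a2 and Sf3b5, had log2 changes of -0.39, -0.29 and -0.22 and did not pass.

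Among SR protein genes 1 of 10 tested was called lower (10%, beside 26.7% of all genes) and 0 higher (beside 22.1%). Both shares were below the background. At unadjusted p under 0.05 (limma) 2 were lower and 0 higher. The median log2 change was -0.25 as deposited and 0.34 under ERCC scaling, and summed levels were 1796 and 1754 TPM in WT, compared with 1392 and 1561 TPM in Tet2 KO. Srsf3, for the smallest SR protein, stood at 257 and 253 TPM in WT, compared with 148 and 185 TPM in Tet2 KO, a log2 change of -0.62 ± 0.22 (SE; adjusted p = 0.0317). It did not pass with libraries centred on their medians or quantile normalized, without trend and robust estimation, or under ERCC scaling (log2 change -0.03). Srsf5 was the most abundant Srsf gene by mean over the libraries, at 440.4 and 439 TPM in WT, compared with 325 and 328 TPM in Tet2 KO (-0.43 ± 0.23, adjusted p = 0.142). Both Tet2 KO values were lower and close together, yet the change did not pass.

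Srsf2, a factor that binds exonic enhancers, was at 404 and 388 TPM in WT, compared with 332 and 393 TPM in Tet2 KO (-0.13 ± 0.24, adjusted p = 0.674), so the groups overlapped. Srsf1, the founding member of the family, had the smallest change among SR genes, at 106 and 103 TPM in WT, compared with 89.5 and 108 TPM in Tet2 KO (-0.08 ± 0.20, adjusted p = 0.753), and the groups overlapped too. Srsf7, Srsf6, Srsf9 and Srsf4 had log2 changes of -0.44, -0.42, -0.35 and -0.14 without passing. Srsf10 and Srsf11 were the SR genes with higher values: Srsf10, whose protein can repress splicing when dephosphorylated, stood at 48.9 and 45.8 TPM in WT, compared with 58.4 and 66.3 TPM in Tet2 KO (0.39 ± 0.19, adjusted p = 0.105). Srsf11 was at 93.3 and 91.0 TPM in WT, compared with 110.1 and 122 TPM in Tet2 KO (0.33 ± 0.20, adjusted p = 0.185). Srsf12 was at 0 to 0.04 TPM and was not tested. In all 10 tested genes replicate 1 of Tet2 KO was the lower Tet2 KO library.

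Of 20 hnRNP genes tested, 3 were called higher (15%, beside 22.1% of all genes), the only higher calls among the 50. Lower calls numbered 2 (10%, beside 26.7% of all genes), so both shares were below the background. At unadjusted p under 0.05 (limma) the hnRNP genes had 3 higher and 3 lower. Their median log2 change was -0.09 as deposited, close to that of all genes (-0.12), and 0.50 under ERCC scaling. Their summed level overlapped between groups, at 4474 and 4389 TPM in WT, compared with 4361 and 4611 TPM in Tet2 KO. Hnrnpf, whose protein binds G tracts, was the most abundant gene of all 50 in both groups, at 618 and 617 TPM in WT, compared with 776 and 749.7 TPM in Tet2 KO (0.30 ± 0.26, adjusted p = 0.348).

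Hnrnpa3 rose most. Its protein belongs to the A/B group of hnRNPs. It stood at 42.5 and 42.6 TPM in WT, compared with 91.1 and 94.5 TPM in Tet2 KO, 2.18 times the WT level and a log2 change of 1.11 ± 0.19 (SE; adjusted p = 0.000159). Both pairs were tight and far apart. Hnrnpll, for a protein that controls alternative exons of the leukocyte surface gene Ptprc (CD45), stood at 38.9 and 37.2 TPM in WT, compared with 73.6 and 65.0 TPM in Tet2 KO (1.82 times, log2 change 0.84 ± 0.19, adjusted p = 0.00174). Unlike most splicing factor genes, it was higher in replicate 1 than in replicate 2 of Tet2 KO. Hnrnpu, for a large nuclear matrix protein that binds RNA and chromatin, was at 314 and 305 TPM in WT, compared with 448 and 494 TPM in Tet2 KO (1.52 times, 0.60 ± 0.24, adjusted p = 0.0494), and it moved from rank 9 to rank 2 by level among the 50 genes. Its call was lost without WT replicate 2 (adjusted p = 0.0568). Hnrnpa3 lies at chr2:75659261-75669407 (plus), Hnrnpll at chr17:80029487-80062334 (minus) and Hnrnpu at chr1:178321108-178337797 (minus) in mm10. All 3 were also called higher under ERCC scaling and under median centring, beside 41.5% and 24% of all genes. These scalings moved the median of all genes up by 0.55 and 0.098, which favours keeping a higher call. Hnrnpu was not called after quantile normalization, nor without trend and robust estimation.

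Hnrnpa1, the best known A/B member and a repressor of exon inclusion, went the other way from Hnrnpa3, at 102 and 92.7 TPM in WT, compared with 50.0 and 70.2 TPM in Tet2 KO (-0.71 ± 0.22, adjusted p = 0.0172). Near-identical retrocopies exist for Hnrnpa1, as for Snrpg and Snrpe, so how reads were divided among the copies is uncertain. Within a library the ratio of Hnrnpa3 to Hnrnpa1 was 0.415 and 0.46 in WT and 1.82 and 1.35 in Tet2 KO. Hnrnpc, for a protein that binds uridine tracts, was at 218 and 218 TPM in WT, compared with 142 and 142 TPM in Tet2 KO (-0.61 ± 0.21, adjusted p = 0.0238), with both pairs nearly identical. Its call was lost with median centring (limma adjusted p = 0.0919), quantile normalization, no trend or robust estimation, and ERCC scaling (log2 change -0.02). Hnrnpa1 lost its call in the same fits other than median centring. The ratio of Hnrnpu to Hnrnpc was 1.44 and 1.40 in WT and 3.14 and 3.48 in Tet2 KO, and that of Hnrnpll to its relative Hnrnpl was 0.236 and 0.218 against 0.405 and 0.339. These pairs, too, were chosen after the values were seen.

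The remaining 15 hnRNP genes did not pass. Hnrnpd, for AUF1, which binds AU-rich elements of mRNAs, came nearest, at 50.1 and 47.7 TPM in WT, compared with 34.0 and 36.6 TPM in Tet2 KO (-0.46 ± 0.20, adjusted p = 0.0655, or 0.0482 without WT replicate 2). Hnrnpk, a poly(C) binding protein and second by level in WT, was at 562 and 557 TPM in WT, compared with 453 and 454 TPM in Tet2 KO (-0.30 ± 0.24, adjusted p = 0.322). Hnrnpul1 had the smallest change of the family, at 222 and 223 TPM in WT, compared with 228 and 229 TPM in Tet2 KO (0.04 ± 0.22, adjusted p = 0.884). The abundant Hnrnpa2b1 (-0.15), Hnrnph1 (0.12), Hnrnpm (-0.08) and Hnrnpab (-0.25) stayed within 0.25 of 0 on the log2 scale. Hnrnph3 (0.36), Hnrnpl (0.16), Hnrnpdl (-0.07), Hnrnph2 (-0.11), Hnrnpul2 (-0.12), Hnrnpr (-0.18) and Hnrnpa0 (-0.28) make up the rest with Hnrnpf.

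The order of the genes by level was largely shared by the groups. Spearman's rho between mean TPM in WT and in Tet2 KO was 0.93 across the 50 genes, which are not independent replicates and share the same libraries. The largest moves up the order were Hnrnpa3 (rank 47 in WT, 29 in Tet2 KO), Srsf11 (36 to 22) and Hnrnpll (48 to 36), and the largest moves down were Sf3b3 (26 to 38), Snrpb2 (32 to 42) and Snrpd3 (24 to 33). All 52 genes together took 0.933% and 0.92% of mouse TPM in WT and 0.775% and 0.849% in Tet2 KO.

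Which direction the families took depended on the scaling between libraries. As deposited, medians were -0.52 for snRNP, -0.39 for SF3, -0.25 for SR and -0.09 for hnRNP genes. With ERCC scaling they were 0.07, 0.20, 0.34 and 0.50, and with libraries centred on the median of the tested genes -0.43, -0.29, -0.15 and 0.004. Relative to the median of all genes, the snRNP median was -0.41 as deposited and -0.37 under ERCC scaling, and the hnRNP median was 0.02 and 0.06. After quantile normalization these were -0.46 and -0.02, so the hnRNP median changed sides of that of all genes. Of the 38 genes below 0 as deposited, 30 were above 0 under ERCC scaling, and Snrpg, Snrpd3, Snrpb2, Snrpf, Sf3b3, Srsf3, Hnrnpa1 and Hnrnpc stayed below. ERCC scaling and median centring move all genes of a library by nearly the same log2 amount, so they could hardly change the order of the families. Quantile normalization is not such a shift, and the order from snRNP to hnRNP was the same there. The order was not tested. ERCC scaling called 13 of the 50 genes higher and 0 lower (limma; 15 higher and 0 lower at unadjusted p under 0.05), beside 41.5% higher, 12.5% lower and 54% in either direction over all genes. Of the 14 genes called as deposited it kept Hnrnpa3, Hnrnpll and Hnrnpu. Median centring called 3 higher and 6 lower, beside 24% higher, 23.5% lower and 47.5% in either direction, and kept 9 of the 14, including Snrpg, Snrpd3, Snrpb2, Snrpf, Sf3b3 and Hnrnpa1.

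**Figure D3:**
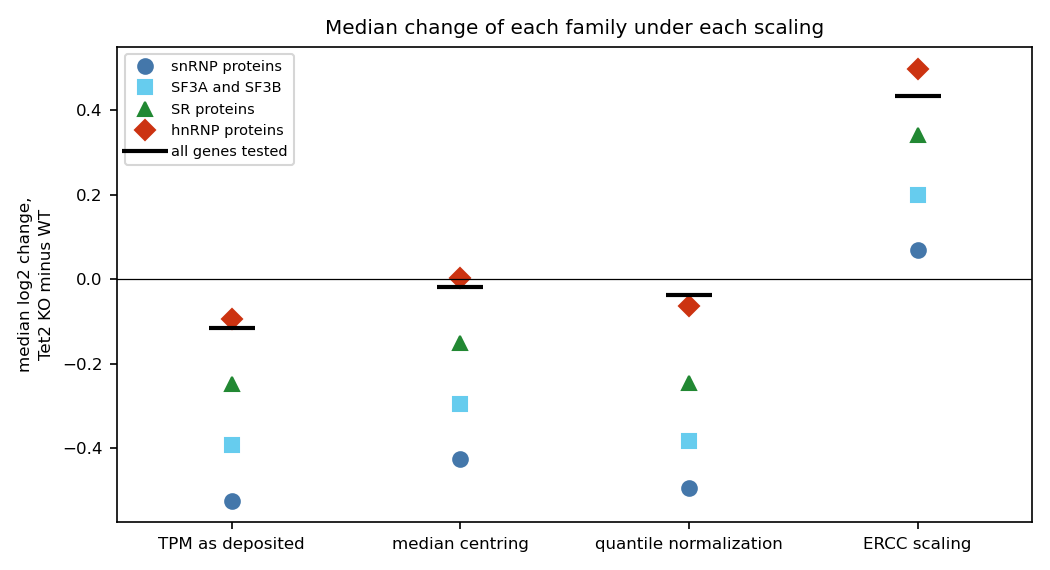
Median log2 change (Tet2 KO minus WT, y axis) of each family and of all 11919 genes tested under 4 ways of scaling the libraries (x axis); points are medians over genes, with no error drawn. Among the 4 families the snRNP median is lowest and the hnRNP median highest in each scaling. Median centring and ERCC scaling shift all genes of a library nearly alike, so they could hardly change that. The median of all genes lies above the hnRNP median after quantile normalization (-0.04 and -0.06), and every median is above 0 under ERCC scaling.

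The libraries labelled Tet2 KO also differed from each other in these genes. Replicate 1 lay below replicate 2 in 43 of 50 genes (86%), beside 65.2% of all genes. The median difference without sign was 0.18 on the log2 scale, against 0.19 over all genes, and between the WT libraries it was 0.04 against 0.05. Replicate 1 had the lower Rn45s share (0.134% against 0.298%), the higher sum of the neutrophil list (108654 against 87569 TPM) and the lower cell cycle sum (1194 against 1622 TPM). The part of these in the difference was not tested. Opposite-strand exon overlap was annotated for 19 of the 52 genes, among them Sf3b3, Hnrnpu (with Cox20), Snrpd3 (with Gucd1) and Snrpf (with Ccdc38). The kit keeps strand, but the sources used here do not say whether counting used strand, so reads from both partners may not be separated.

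Other genes of the splicing machinery were taken from 7 lists of 140 genes, of which 139 were tested. In these, 16 were called higher (11.5%) and 31 lower (22.3%), or 33.8% in all, beside 22.1%, 26.7% and 48.8% of all genes, with a median log2 change of -0.15 (0.44 under ERCC scaling). Assembly of Sm rings onto snRNAs needs the SMN complex and methylation of Sm proteins. Of 16 such genes, 8 (50%, beside 26.7% of all genes) were called lower and 0 higher (limma). The counts at unadjusted p under 0.05 were also 8 and 0. The list median was -0.59 as deposited and -0.10 under ERCC scaling. That scaling called 0 lower and 2 higher, beside 12.5% and 41.5% of all genes. At unadjusted p under 0.05 (limma) it had 1 lower and 3 higher. Prmt5, the methyltransferase for Sm proteins, stood at 48.3 and 50.7 TPM in WT, compared with 16.9 and 26.2 TPM in Tet2 KO (-1.20 ± 0.26, adjusted p = 0.00295). Its partner Clns1a, which presents Sm proteins to it, changed by -0.97 ± 0.24 (adjusted p = 0.00389), and Gemin5, which recognises snRNAs, by -1.03 ± 0.30 (adjusted p = 0.00989). The other called genes of this list were Snupn, Gemin2, Coil, Smn1 and Phax, and Wdr77, the cofactor of PRMT5, was not called (0.15, adjusted p = 0.608). These lists were read with the Sm results known, so they are a description beside them.

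Of 7 genes named Snrnp, 4 (57.1%, beside 26.7% of all genes) were called lower and 0 higher (limma; 4 and 0 at unadjusted p under 0.05), with a median of -0.50 as deposited and 0.07 under ERCC scaling, where none of the 7 was called (limma; 0 at unadjusted p under 0.05). Snrnp70, for the U1 protein that binds U1 RNA, was at 153 and 158 TPM in WT, compared with 98.9 and 99.4 TPM in Tet2 KO (-0.64 ± 0.20, adjusted p = 0.0137). Snrnp40 and Snrnp35 changed by -0.77 (adjusted p = 0.0109) and -0.74 (adjusted p = 0.0297). Among 41 genes of the tri-snRNP and the catalytic core, 1 was called higher (Syf2, 0.57), or 2.44% beside 22.1% of all genes. Lower calls numbered 12 (29.3%, beside 26.7% of all genes), a share close to the background. The largest were Cwc27 (-1.14), Prpf40b (-1.07) and Dhx35 (15.8 and 15.6 TPM in WT, 6.42 and 8.35 TPM in Tet2 KO). The list median was -0.35. Under ERCC scaling 14 of the 41 were called higher and 2 lower, beside 41.5% and 12.5% of all genes, and the median was 0.24. Among 16 U2 factors, 2 (12.5%, beside 26.7% of all genes) were called lower and 0 higher (limma). At unadjusted p under 0.05 these were 4 and 0. Under ERCC scaling 3 were called higher and 0 lower, beside 41.5% and 12.5% of all genes. The unadjusted counts there (limma, p under 0.05) were 5 and 0. U2af1, which reads the AG at the end of introns, was at 155 and 152 TPM in WT, compared with 83.1 and 96.5 TPM in Tet2 KO (-0.77 ± 0.20, adjusted p = 0.00528), and Htatsf1 changed by -0.67 (adjusted p = 0.0349). The Sm-like Lsm genes, of the U6 and U7 particles and of mRNA decay, had 1 call each way among 10. These were Lsm10 (1.51), which belongs to U7, and Lsm7 (-0.66). That is 10% higher and 10% lower, beside 22.1% and 26.7% of all genes, with a list median of 0.03. Under ERCC scaling 6 were called higher and 0 lower, beside 41.5% and 12.5% of all genes, with a median of 0.60. At unadjusted p under 0.05 (limma) these were 7 and 0.

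Phosphorylation by SRPK and CLK kinases sets where SR proteins act and which partners they bind. Of 10 kinase and transport genes, 5 (50%, beside 22.1% of all genes) were called higher and 0 lower (limma; 5 and 0 at unadjusted p under 0.05), with a median of 0.42 as deposited and 1.01 under ERCC scaling, where 7 were called higher beside 41.5% of all genes. Srpk2, a cytoplasmic SR kinase, stood at 16.5 and 16.5 TPM in WT, compared with 60.1 and 54.3 TPM in Tet2 KO (1.73 ± 0.20, adjusted p = 3.22e-06). Clk1, a nuclear SR kinase, was at 164 and 167 TPM in WT, compared with 316 and 341 TPM in Tet2 KO (0.98 ± 0.22, adjusted p = 0.0019), and Clk4 changed by 1.07 ± 0.19 (adjusted p = 0.000229). Clk3 and Dyrk1a were the other calls. The relative Srpk1 had a log2 change of -0.40 and did not pass (adjusted p = 0.0969), and Clk2 and Srpk3 had log2 changes of -0.01 and 0.01. Among 39 other splicing regulators, 9 (23.1%, beside 22.1% of all genes) were called higher, with the largest changes in Rbmx (1.68), Mbnl3 (1.52) and Mbnl2 (0.99). Lower calls numbered 4 (10.3%, beside 26.7%): Taf15 (-1.24), Nono (-0.78), Mbnl1 (-0.70) and Khdrbs1 (-0.55). Under ERCC scaling 18 of the 39 were called higher and 1 lower, beside 41.5% and 12.5% of all genes. As deposited, Mbnl2 and Mbnl3 were called higher and their relative Mbnl1 lower. Under ERCC scaling Mbnl1 stood at -0.10 and was not called.

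**Figure D4:**
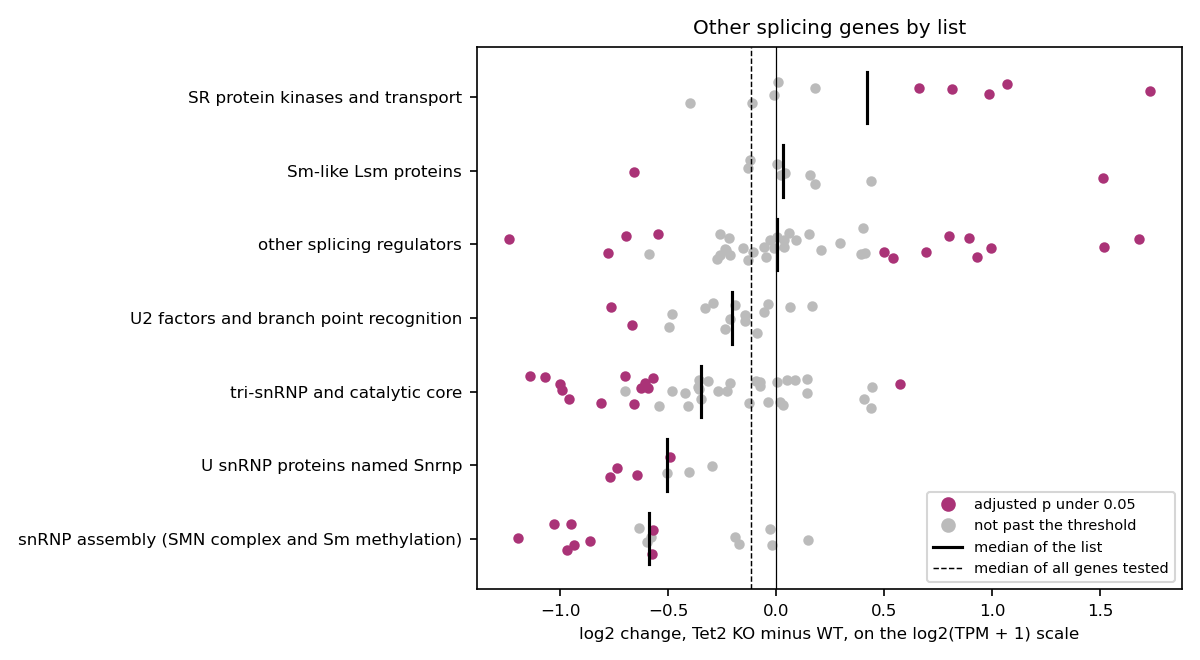
Log2 change (Tet2 KO minus WT, on the log2(TPM + 1) scale; x axis) of 139 other splicing genes by list (y axis); points are genes, spread vertically for sight, and solid bars are list medians, with no error drawn. The median is lowest for snRNP assembly genes (-0.59) and highest for SR protein kinases and transport (0.42).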

How the data were processed

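RNA was measured in 4 libraries, 2 labelled WT and 2 labelled Tet2 KO. The authors deposited gene-level TPM values; the submitters' processing notes list STAR, RSEM and mm10 with no version. The gene annotation and any use of strand are not given in the sources used here. Per the labels, RNA was extracted with QIAzol and prepared with the KAPA stranded mRNA kit. The table holds 24589 rows, 92 of them ERCC spike-ins, which were left out of tests. All 52 splicing factor symbols matched GENCODE M21 (mm10), which gave the coordinates, counted from 1.

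TPM states no depth. Reads were estimated from low values, which, times transcript length, come in steps of 1 read; 74.3% to 76.3% of them lay within 0.2 of a whole multiple. These depths are approximate, so no counting interval is given. Because the WT libraries differed by about read sampling, their mean entered as 1 sample (n = 1), beside 2 samples of Tet2 KO (n = 2). The spread is then that of the Tet2 KO pair, and the lone WT value is taken to vary in the same way.

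Differences were tested, two-sided, with limma 3.58.1 (R 4.3.3), run on log2(TPM + 1) with an abundance trend and robust estimation, over 11919 genes with at least 1 TPM in at least 2 libraries, and adjusted by Benjamini-Hochberg with a threshold of 0.05. This scale understates the change of low genes. The script was tested on simulated data. Alternatives were both WT libraries as samples, a replicate block, a pseudocount of 0.1, no filter, a filter of 5 TPM, ERCC scaling, quantile normalization, median centring, no trend or robust estimation, and leaving out each library. The members, lists and tests were chosen with earlier results of these data known. By rule, values in every library are given for each family's most abundant member, up to 4 called per direction with the largest change, and the smallest change, and up to 3 other splicing genes are named per list and direction; further ones were named after their values were seen. Promoter windows are RefSeq's (GRCm38.p6); Hnrnpll, Hnrnpul2, Sf3b4, Sf3b5, Snrpb and Snrpd1 had none.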

Additional observations from a re-analysis of the deposited data

How the results depend on the processing

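As deposited, limma called 2629 of all genes higher and 3182 lower, 3 splicing factor genes higher and 11 lower, and 16 other splicing genes higher and 31 lower. Scaling to ERCC spike-ins gave 4942 and 1492, 13 and 0, and 50 and 3, and turned the median of the splicing factor genes from -0.29 to 0.30 (SD over the Tet2 KO libraries 0.12), with 30 of the 38 genes below 0 turning above it. Among those called in either fit these were Sf3a3 at 0.0871, Snrpb at 0.0159, Snrpe at 0.0692 and Hnrnpdl at 0.52. Without a filter limma called 123 and 295 genes, 0 and 0 splicing factor genes (3 and 7 at unadjusted p under 0.05) and 0 and 0 other splicing genes (17 and 26). The cause was not tested. Both WT libraries as samples gave 7 and 22 splicing factor genes, and 55 other splicing genes lower. With the replicate block, for numbers not shown to pair the libraries (the correlation of the deviations was 0.01 over 8226 genes), these were 6, 24 and 52. Lower calls among the splicing factor genes numbered 3 after quantile normalization, 6 after median centring and 4 without trend and robust estimation. Over all genes these fits called 2552, 2798 and 2776 lower. The last of them left 19 other splicing genes lower. Leaving out 1 library gave 2651 to 4321 genes higher and 3192 to 5674 lower, 2 to 10 splicing factor genes higher and 11 to 35 lower (26 without Tet2 KO replicate 1, 35 without replicate 2), 15 to 37 other splicing genes higher and 30 to 81 lower, and splicing factor medians of -0.20 to -0.37. The fits without a Tet2 KO library take both WT libraries as samples, so their spread comes from that pair. The WT pair differs by little more than read sampling, so calls kept there say nothing of stability. The fits with all 4 libraries as samples, with or without the block, draw part of their spread from the same pair. Without the block, calls over all genes rose from 48.8% to 67.4%. Calls kept in these fits say little of stability. All 14 calls were kept with both WT libraries as samples, the block, a pseudocount of 0.1, a 5 TPM filter, and without WT replicate 1; 11 were kept without WT replicate 2, 9 with median centring, 6 without trend, 5 after quantile normalization, 3 under ERCC scaling and 0 without a filter. With the WT mean as 1 sample the smallest change of a splicing factor gene that passed was that of Sf3a3 (-0.50), while Snrpa1 and Snrpd2, at -0.51 each, did not pass, so values that missed the threshold are undecided.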
